A study of Mus musculus with 96 samples.

Results

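The Hox cluster genes of the mouse kidney were followed along the nephron and the collecting duct in RNA of microdissected segments. Every row of the transcripts-per-million (TPM) table whose symbol names a Hoxa, Hoxb, Hoxc or Hoxd gene was taken, which gave 40 rows of 54532. They carry 39 symbols, since Hoxd4 stands on 2 gene identifiers. The Hoxa cluster gave 11 rows, Hoxb 10, Hoxc 9 and Hoxd 10.

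The kidneys came from male C57BL/6 mice aged 6 to 8 weeks with free access to water and chow, and the labels name no treatment. 93 samples were used, 87 of tubule and 6 of glomerulus, and pieces of the same mouse number and segment were averaged, which left 53 mice in 15 groups. The groups, in order along the urine path, were the glomerulus (3 mice), the first (PTS1, 3), the cortical straight (PTS2, 5) and the outer stripe (PTS3, 3) part of the proximal tubule, the short descending thin limb (DTL1, 3), the long descending limb in the outer (DTL2, 3) and inner medulla (DTL3, 3), the thin ascending limb (ATL, 4), the medullary (MTAL, 3) and cortical (CTAL, 5) thick ascending limb, the convoluted part of the distal tubule (DCT, 3), the connecting segment after it (CNT, 3), and the cortical (CCD, 5), outer medullary (OMCD, 4) and inner medullary (IMCD, 3) collecting duct. Each sample is a hand-dissected piece that can hold more than 1 cell type.

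Hox genes code for homeodomain transcription factors. They lie in clusters in which low-numbered genes act toward the head and high-numbered genes toward the tail of the embryo, and genes with the same number in different clusters are paralogues. In the kidney, paralogues of group 11 are known for their part in ureteric bud outgrowth and nephron patterning, and a Hoxb7 promoter is widely used to drive transgenes in the ureteric bud. The collecting duct grows from the ureteric bud and the nephron from the mesenchyme around it, so the design sets tubules of both origins side by side.

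Principal cell markers followed the segment labels: the summed TPM of 5 principal cell genes (Aqp2, Aqp3, Avpr2, Scnn1g and Hsd11b2) had a median over mice of 13420 for CNT and of 23770, 35790 and 28530 for CCD, OMCD and IMCD, against 839.7 in DCT, 213 in ATL, 29.9 in DTL3 and 0 for all 5 genes in PTS3. DCT mice held 5863 to 6398 TPM of 2 distal convoluted genes. They also held 1379 to 2245 TPM of 2 thick limb genes and 610.6 to 701.7 TPM of 4 intercalated cell genes. Proximal genes summed to 4.01 to 200.5 TPM there, with a median of 5.07 TPM. The part of these markers in the Hox values of DCT was not tested. Groups differed in how many odorant and vomeronasal receptor genes were detected. Of 1740 odorant and vomeronasal receptor genes, 704 to 861 reached 1 TPM in the DTL1 mice, 372 to 840 in the glomeruli, 466 to 517 in DTL3, 260 to 362 in DTL2 and 69 to 239 in OMCD. ATL mice 4 and 6 held 576 and 659, and ATL mice 2 and 3 held 29 and 17. In PTS1 the range was 6 to 27 and in IMCD 3 to 22, and no mouse of the other groups held more than 5. Endothelial marker sums had medians of 3084, 1356 and 1039 TPM in DTL1, DTL2 and DTL3, and from 45.3 (PTS1) to 436 TPM (OMCD) in the other tubule groups, with 227 TPM in ATL and 178 TPM in CCD. The part of these differences in the Hox values of thin limbs and glomerulus was not tested. The comparison of collecting duct with nephron is also given without the thin limbs, and that of the inner medulla without ATL mice 4 and 6. The number of cells and the RNA per cell cannot be told apart in such pieces.

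At a mean of at least 10 TPM in at least 1 group, 23 of the 40 rows were expressed: Hoxa3, a5, a6, a7, a9 and a10, Hoxb2, b3, b5, b6, b7, b8 and b9, Hoxc6, c8, c9 and c10, and Hoxd3, both Hoxd4 rows, d8, d9 and d10. All 7 rows of paralogue groups 9 and 10 reached 10 TPM, as did 10 of 11 rows of groups 5 to 8 and 6 of 13 rows of groups 1 to 4. None of the 9 rows of groups 11 to 13 did. The highest of those was Hoxa11, with 6.74 ± 1.24 TPM (SD, n = 3) in DTL2. In the GENCODE M21 annotation 35.0% of its exon bases lie opposite Hoxa11os, which had a mean of 7.11 TPM in DTL2, 13.18 TPM in the glomerulus and 21.05 TPM in DTL1. Whether counting used strand is not given in the sources used here, so reads of such pairs cannot be told apart where they overlap. Among the 17 rows below 10 TPM the highest group mean was 9.36 ± 5.64 TPM (SD, n = 4), of Hoxc5 in ATL, and 4 rows (Hoxa13, Hoxb13, Hoxc11 and Hoxd13) stayed below the minimum for testing of 1 TPM in 3 mice.

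**Figure D1:**
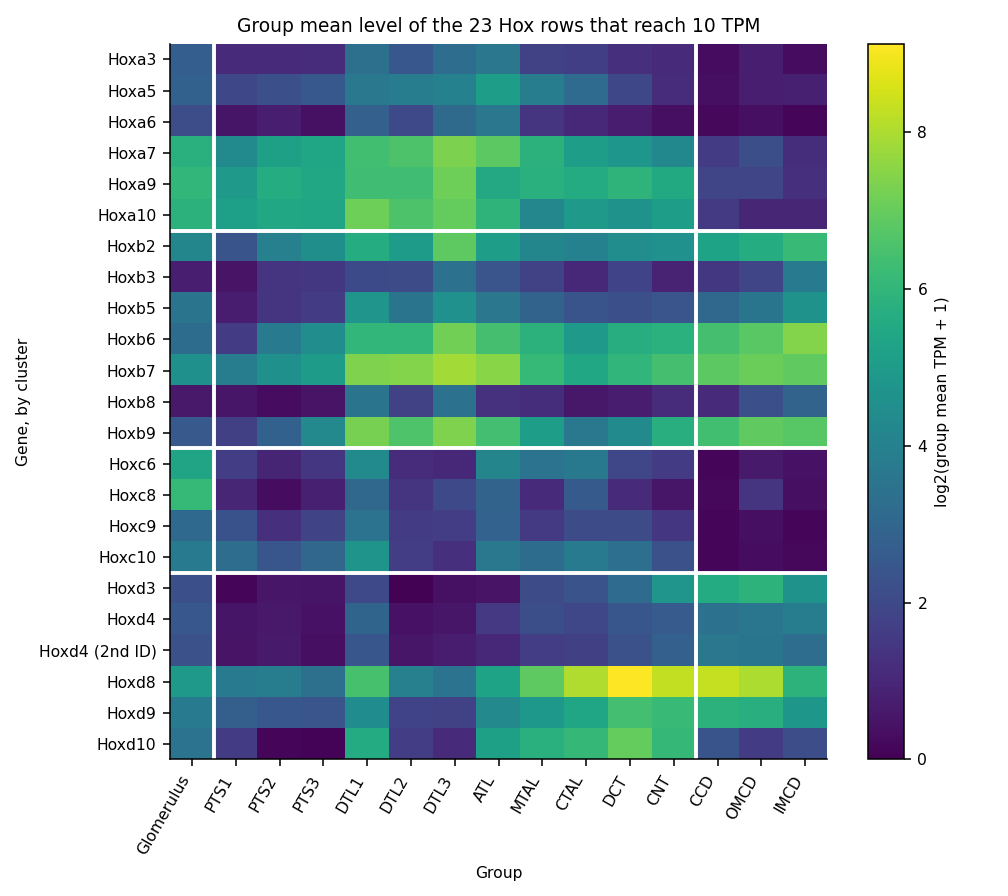
Group mean level of the 23 Hox rows that reach 10 TPM (colour: log2 of the group mean TPM plus 1). Rows are ordered by cluster and number, columns from glomerulus to inner medullary collecting duct, and white lines separate the clusters, the glomerulus and the 3 collecting duct groups. The Hoxa and Hoxc rows are dark in all 3 collecting duct groups, where their medians over 12 mice are at most 2.445 TPM. Hoxb3 is dark in CCD and OMCD (means of 1.82 and 2.80 TPM) and lighter in IMCD (12.39 TPM).

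The summed Hox TPM and its split among clusters changed from segment to segment. The sum was lowest in PTS1, at 154 ± 17.7 TPM (SD, n = 3), and reached 1195 ± 31.1 TPM (SD, n = 3) in DTL3 and 1082 ± 18.9 TPM (SD, n = 3) in DCT. In the proximal tubule Hoxa genes made up 59.1% ± 1.17 (PTS1, SD, n = 3) and 60.6% ± 0.878 (PTS2, SD, n = 5) of it. In DTL3 the leading cluster was Hoxb, with 59.3% ± 2.19 (SD, n = 3), while Hoxd held 1.45% ± 0.416. Hoxd led in DCT, with 72.5% ± 1.84 (SD, n = 3), and still held 56.9% ± 1.48 (SD, n = 5) in CCD. The Hoxa share was 12.4% ± 1.92 (SD, n = 3) in CNT and 0.979% ± 0.171 (SD, n = 5) in CCD, the next segment. In IMCD 78.5% ± 1.34 (SD, n = 3) of the Hox TPM was Hoxb. Hoxc genes held 29.2% ± 0.550 (SD, n = 3) in the glomerulus and 0.0793% ± 0.0158 (SD, n = 5) in CCD. These shares describe TPM, which is per transcript length, and are sums over all 40 rows.

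**Figure D2:**
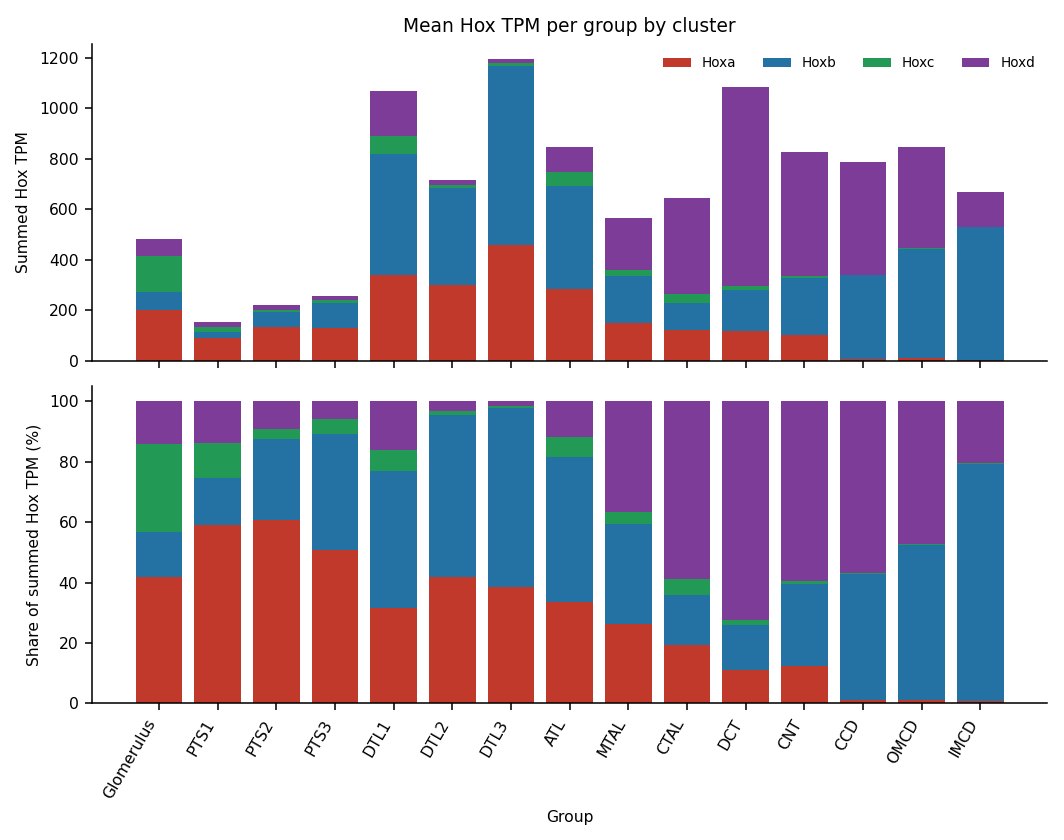
Stacked bars of the mean Hox TPM per group, as a sum (top, TPM) and as a share of that sum (bottom, percent), by cluster. Hoxa is 59.1% of the sum in PTS1 and 0.979% in CCD, Hoxd peaks at 72.5% in DCT, and Hoxb is 78.5% in IMCD.

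Levels of members were compared along the 15 groups, as a description over group means that share the same libraries. Over the 23 expressed rows, the median Pearson r between 2 members was 0.86 within Hoxa (15 pairs, from 0.61 to 0.98), 0.81 within Hoxb (21 pairs, from 0.68 to 0.97), 0.84 within Hoxc (6 pairs, from 0.54 to 0.92) and 0.80 within Hoxd (15 pairs, from 0.24 to 0.98). Between clusters it was 0.01 (196 pairs, from -0.81 to 0.79). All 36 rows tested differed among the 15 groups (limma, moderated F-test, adjusted p from 2.61e-37 for Hoxb6 to 8.71e-04 for Hoxc13), where 93.9% of all 33793 genes tested did.

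Hoxa7, Hoxa9 and Hoxa10 were expressed in the glomerulus and in every nephron segment and were low in the collecting duct, at medians of 1.926, 2.445 and 1.304 TPM over its 12 mice. Hoxa9, which in blood cells is best known from leukaemia, measured 29.7, 27.7 and 30.8 TPM in the PTS1 mice, 129, 131 and 150 TPM in the DTL3 mice, 64.9, 57.3 and 59.7 TPM in the DCT mice and 53.6, 38.4 and 45.7 TPM in the CNT mice. In the 5 CCD mice it measured 2.64, 3.40, 3.36, 1.48 and 2.93 TPM, in the 4 OMCD mice 3.40, 1.60, 3.59 and 2.25 TPM, and in the 3 IMCD mice 0.957, 1.90 and 1.31 TPM. The 38 nephron mice and the 12 collecting duct mice did not overlap: the lowest nephron mouse, in PTS1, held 27.7 TPM and the highest collecting duct mouse, in OMCD, 3.59 TPM. The log2 difference of collecting duct from nephron was -4.21 (SE 0.07, adjusted p = 4.84e-39), on the log2(TPM + 1) scale used for all differences here.

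Hoxa10, which patterns the lumbar spine and the uterus, was also split without overlap. Nephron mice ranged from 16.0 TPM in MTAL through a median of 40.1 to 167 TPM in DTL1, and collecting duct mice from 0.343 TPM in IMCD through a median of 1.304 to 3.29 TPM in CCD. Its difference was -4.50 (SE 0.10, adjusted p = 3.68e-34). Hoxa7 ranged from 17.1 TPM in CNT to 168 TPM in DTL3 among nephron mice and from 0.887 TPM in IMCD to 5.02 TPM in OMCD among collecting duct mice (difference -4.04, SE 0.08, adjusted p = 3.46e-36). Likewise 20.4% of the Hoxa7 exon bases lie opposite the antisense gene Hoxaas3, which had group means from 0.623 TPM in CNT to 11.07 TPM in ATL along the nephron and at most 1.44 TPM in a collecting duct group (OMCD). Along the nephron Hoxa7 stood at 161 ± 7.22 TPM (SD, n = 3) in DTL3 and at 18.4 ± 2.10 TPM (SD, n = 3) in CNT, with each group mean from DTL3 to CNT below the one before it, and Hoxa9 stayed between 44.3 and 60.6 TPM in the group means from ATL to CNT. By rank of the difference, Hoxa10, Hoxa9 and Hoxa7 were numbers 7, 13 and 15 from the lowest among 33793 genes.

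**Figure D3:**
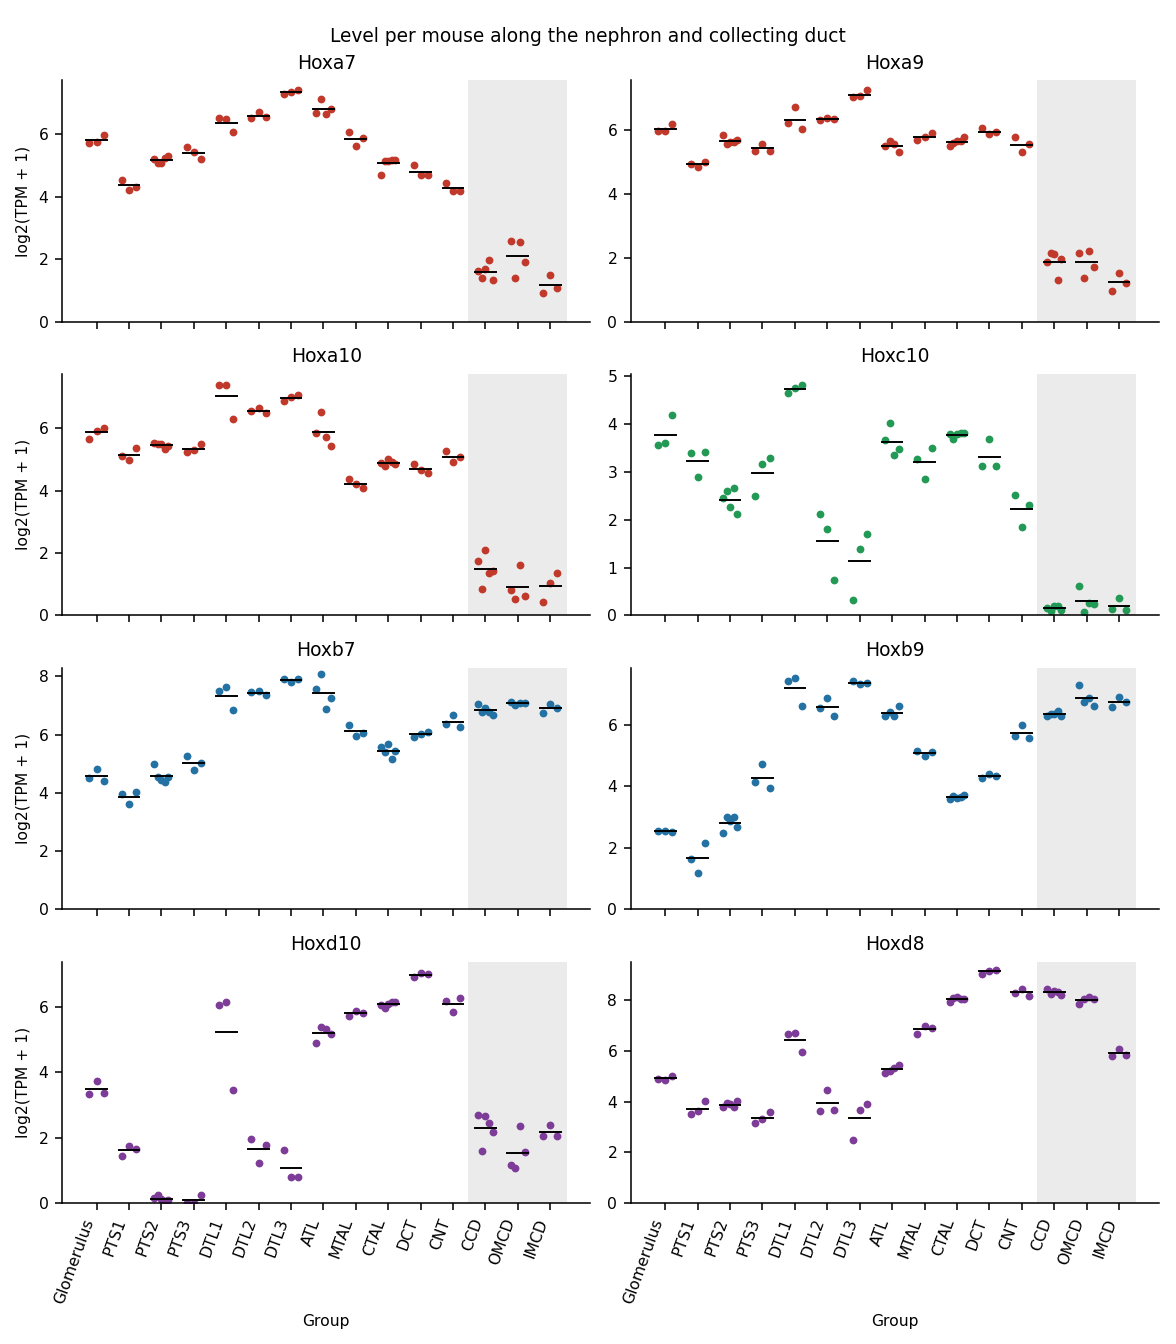
Level per mouse (points, log2 of TPM plus 1) and group mean (black line) of 8 Hox genes in the 15 groups, with the collecting duct shaded. Hoxa7, Hoxa9 and Hoxa10 drop between CNT and CCD with no overlap of mice, Hoxc10 and Hoxd10 also drop there, Hoxb7, Hoxb9 and Hoxd8 do not.

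Of the 36 rows tested, 20 differed between collecting duct and nephron at an adjusted p under 0.05 and a log2 difference of at least 1, where 7.36% of all genes did. 10 rows were higher in the collecting duct, where 4.56% of all genes were, and 10 were lower, where 2.80% were. The directions followed the clusters. In Hoxa 6 of 10 tested rows were lower and none higher, in Hoxc 3 of 8 were lower and none higher, in Hoxb 4 of 9 were higher and none lower, and in Hoxd 6 of 9 were higher and 1 lower. The median difference was -1.40 in Hoxa, 0.79 in Hoxb, -0.84 in Hoxc and 1.60 in Hoxd, against -0.06 over all genes tested.

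The other lower Hoxa rows were Hoxa3 (-1.53, SE 0.12), a patterning gene of thymus and parathyroid, Hoxa5 (-2.44, SE 0.08), a gene needed for lung development, and Hoxa6 (-1.26, SE 0.10). Hoxa5 was highest in ATL, where the mice measured 31.4, 34.4, 34.9 and 35.1 TPM, and was low in CNT already, at 1.43, 0.880 and 1.32 TPM. Its 12 collecting duct mice ranged from 0.140 to 1.65 TPM and overlapped the CNT mice. Without the thin limbs in the fit, Hoxa3 (-0.87) and Hoxa6 (-0.50) no longer reached the size of 1, so those calls rest on the thin limbs. Both calls were also lost with a pseudocount of 5 (-0.63 and -0.50).

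In the Hoxc cluster the genes that fell were Hoxc6 (-1.88, SE 0.11), Hoxc9 (-1.75, SE 0.11), which sets thoracic motor neuron identity, and Hoxc10 (-2.71, SE 0.12), known from lumbar motor neurons. With a pseudocount of 5 the calls of Hoxc6 (-0.87) and Hoxc9 (-0.66) were lost and that of Hoxc10 (-1.25) was kept. Hoxc10 had a level of 12.8, 11.95, 12.8, 13.1 and 13 TPM in the CTAL mice and 24.1, 26.1 and 27.1 TPM in the DTL1 mice. It was 0.250, 1.63 and 2.28 TPM in DTL3, so the nephron did not hold it throughout. In the collecting duct the lowest, median and highest mouse had 0.050, 0.125 and 0.525 TPM. The 12 collecting duct mice of Hoxc9 (0.070 to 0.495 TPM) lay below all 38 nephron mice (0.590 to 15.03 TPM).

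The 4 Hoxb rows that were higher in the collecting duct were Hoxb2, Hoxb5, Hoxb6 and Hoxb9. Hoxb9, which acts in rib and mammary gland development, had 77.4, 81.2, 81.1, 85.6 and 77.1 TPM in the CCD mice, 155, 107, 117 and 97.9 TPM in the OMCD mice and 94.8, 119 and 105 TPM in the IMCD mice. In the nephron it measured 2.13, 1.28 and 3.45 TPM in PTS1, 171, 161 and 163 TPM in DTL3, 10.9 to 12.2 TPM in the 5 CTAL mice and 49.0, 62.3 and 46.4 TPM in CNT. The collecting duct mice lay above all proximal, thick limb, DCT and CNT mice and among the thin limb mice. Its difference was 1.66 (SE 0.08, adjusted p = 4.09e-22).

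Hoxb6 was 1.64 higher (SE 0.05, adjusted p = 8.03e-29), with 154, 196 and 173 TPM in the IMCD mice. Hoxb2, a hindbrain patterning gene, was 1.10 higher (SE 0.05) and Hoxb5 1.06 higher (SE 0.09). Both lost their calls under other scalings, at 0.82 and 0.85 after median ratio rescaling and 0.81 and 0.72 after quantile normalization, where the split over all rows was 8 higher and 10 lower and 7 and 10. They were at 0.94 and 0.64 with a pseudocount of 5, also under the size of 1. The highest group mean of each was in a thin limb, 115.7 TPM in DTL3 for Hoxb2 and 26.28 TPM in DTL1 for Hoxb5. Collecting duct mice ranged from 35.1 to 78.43 TPM for Hoxb2 and from 6.06 to 26.72 TPM for Hoxb5. Of the Hoxb2 exon bases, 27.3% lie opposite the antisense gene Hoxb3os, which had means of 2.05, 3.23 and 4.08 TPM in CCD, OMCD and IMCD, and the limit on strand holds there too. Hoxb7, the source of the ureteric bud promoter, had 100.6 to 138 TPM in the 12 collecting duct mice but 117 to 268 TPM in the ATL mice and 221 to 237 TPM in the DTL3 mice. Its difference of 0.79 (SE 0.08, adjusted p = 1.30e-11) was under the size of 1. Without the thin limbs it was 1.58, and then 22 rows differed, where 13.8% of all genes did. 14 of these were higher, where 10.6% of all genes were, and 8 lower, where 3.24% were.

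In the Hoxd cluster the differences changed sign between neighbours. Hoxd3 was 3.91 higher in the collecting duct (SE 0.10, adjusted p = 6.55e-33), number 68 from the highest of all genes. Its CNT mice had 22.5, 31.8 and 23.9 TPM, its CCD mice 51.7, 50.7, 45.6, 45.5 and 48.4 TPM, its OMCD mice 64.9, 62.5, 55.0 and 52.7 TPM and its IMCD mice 29.3, 23.7 and 20.1 TPM. IMCD and CNT overlapped, and every nephron mouse outside CNT stayed at or below 8.77 TPM. In the GENCODE M21 annotation 53.1% of the Hoxd3 exon bases also belong to Gm28230 on the same strand and 9.26% to Hoxd4, so the reads of Hoxd3 and Hoxd4 may be split between these models. A further 8.28% of the Hoxd3 exon bases, and 11.8% of those of the Hoxd4 row ENSMUSG00000101174, lie opposite the antisense gene Hoxd3os1, which had a mean of 63.68 TPM in CNT, 94.84 TPM in CCD and 105.2 TPM in OMCD. The limit on strand holds for these genes too. Gm28230 itself had a mean of 5.98 TPM in CNT and 9.02 TPM in OMCD. Both Hoxd4 rows were 2.12 higher (SE 0.11 and 0.09), and reads of one may be counted to the other. Hoxd1 was 1.11 higher (SE 0.06) at a level of at most 3.37 ± 0.267 TPM (SD, n = 4, OMCD), and its call was lost after quantile normalization (0.96) and with a pseudocount of 5 (0.35).

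Hoxd8 and Hoxd9 were also higher, by 1.75 (SE 0.09) and 1.60 (SE 0.09), and Hoxd10 was lower, by 1.66 on the log2 scale (SE 0.14, adjusted p = 2.19e-13). The group means of all 3 went up from DTL3 to DCT. Those of Hoxd9 were highest in DCT (82.85 TPM) and CNT (70.48 TPM), above its collecting duct mice, which ranged from 18.49 to 64.6 TPM. Hoxd8, with the highest group mean of any Hox gene, measured 10.1 ± 4.92 TPM (SD, n = 3) in DTL3, 38.1 ± 3.87 (SD, n = 4) in ATL, 114 ± 13.2 (SD, n = 3) in MTAL, 262 ± 12.3 (SD, n = 5) in CTAL and 559 ± 28.2 (SD, n = 3) in DCT. CNT (316 ± 28.7 TPM, SD, n = 3) and CCD (317 ± 22.6 TPM, SD, n = 5) did not differ beyond their spread, and IMCD stood at 59.0 ± 5.94 TPM (SD, n = 3).

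Hoxd10 followed Hoxd8 up to DCT but not into the collecting duct. The MTAL mice had 51.2, 57.9 and 54.9 TPM, the DCT mice 118, 129 and 128 TPM and the CNT mice 70.5, 56.3 and 75.4 TPM. The CCD mice had 5.48, 1.98, 5.25, 4.49 and 3.46 TPM, the OMCD mice 1.22, 1.10, 4.07 and 1.93 TPM and the IMCD mice 3.13, 4.19 and 3.14 TPM. PTS2 and PTS3 mice were at 0.195 TPM or less, so the collecting duct overlapped the nephron range while lying below every mouse from ATL to CNT. The DTL1 mice were far apart, with 65.0 and 69.98 TPM in mice 1 and 3 and 9.92 TPM in mouse 5.

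The start regions of 4 of these genes are shown because 3 of them are neighbours that part at the CNT to CCD border and the fourth stops there as well. They run from 250 bases before to 50 bases after the start in RefSeq on GRCm38.p6, 5′ to 3′ on the gene's strand, with CG dinucleotides in capitals.
Hoxa9, chr6:52227321-52227620, strand minus: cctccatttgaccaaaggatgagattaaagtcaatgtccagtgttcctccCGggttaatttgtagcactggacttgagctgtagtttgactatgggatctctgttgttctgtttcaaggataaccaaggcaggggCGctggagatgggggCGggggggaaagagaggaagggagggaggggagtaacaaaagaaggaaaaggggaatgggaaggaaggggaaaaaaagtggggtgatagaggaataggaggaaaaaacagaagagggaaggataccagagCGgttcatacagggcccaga
Hoxd8, chr2:74704365-74704664, strand plus: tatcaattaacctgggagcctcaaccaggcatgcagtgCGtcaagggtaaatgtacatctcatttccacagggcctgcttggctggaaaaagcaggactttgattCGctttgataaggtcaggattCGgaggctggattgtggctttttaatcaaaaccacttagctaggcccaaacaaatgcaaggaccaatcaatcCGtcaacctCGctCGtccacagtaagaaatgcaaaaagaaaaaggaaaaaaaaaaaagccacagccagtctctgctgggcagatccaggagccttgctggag
Hoxd9, chr2:74697513-74697812, strand plus: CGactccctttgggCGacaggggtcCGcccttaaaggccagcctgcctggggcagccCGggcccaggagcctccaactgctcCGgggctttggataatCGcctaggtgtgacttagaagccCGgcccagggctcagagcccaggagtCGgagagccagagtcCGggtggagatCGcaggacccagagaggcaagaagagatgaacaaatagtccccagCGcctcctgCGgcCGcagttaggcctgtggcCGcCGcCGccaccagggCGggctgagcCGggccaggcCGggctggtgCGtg
Hoxd10, chr2:74691641-74691940, strand plus: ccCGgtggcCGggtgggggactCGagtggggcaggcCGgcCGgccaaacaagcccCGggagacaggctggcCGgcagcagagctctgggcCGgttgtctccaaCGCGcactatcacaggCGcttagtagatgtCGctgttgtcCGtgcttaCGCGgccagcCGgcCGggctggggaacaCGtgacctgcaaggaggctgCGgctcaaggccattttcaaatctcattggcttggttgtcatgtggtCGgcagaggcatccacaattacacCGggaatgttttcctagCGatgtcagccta
The RefSeq table held 24 such windows for 22 member symbols. Hoxd10 has 22 CG, Hoxd9 20, Hoxd8 6 and Hoxa9 4, and the median is 14.5 over the member windows and 7 over all 32851 windows. Windows of genes that stopped at the border therefore had both high and low CG counts, as had windows of genes that did not. The TATA box letters TATAAA, on either strand, were found in 4 member windows (Hoxa10, Hoxb8, Hoxd4 and Hoxd13) and 13.6% of all windows. The PBX and HOX pair letters TGATNNAT were found in 4 (Hoxa2, Hoxb1, Hoxb8 and Hoxd11) against 8.85% of all windows, and the MEIS letters TGACAG in 2 (Hoxa2 and Hoxa3) against 19.2%. Such a match describes the letters and shows no binding.

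The border itself was compared between CNT and CCD, adjacent cortical segments in which the marker sums of principal cells (11630 to 15290 TPM per mouse in CNT, 21340 to 26820 in CCD) and of intercalated cells (4574 to 4957 in CNT, 3175 to 4393 in CCD) were both high. Of the 36 rows, 7 differed, where 1.12% of all genes did, and all 7 were lower in CCD, where 0.438% of all genes were. They were Hoxa7 (-2.67, SE 0.18), Hoxa9 (-3.65, SE 0.16), Hoxa10 (-3.60, SE 0.23), Hoxc6 (-1.42, SE 0.24), Hoxc9 (-1.22, SE 0.24), Hoxc10 (-2.07, SE 0.25) and Hoxd10 (-3.78, SE 0.31). Adjusted p ranged from 1.88e-21 for Hoxa9 to 0.00112 for Hoxc9. Ranked from the lowest of 33793 genes, Hoxd10 was number 4, Hoxa9 number 5, Hoxa10 number 6, Hoxa7 number 15 and Hoxc10 number 29. The median over the 36 rows was -0.07 and over all genes 0.02. With a pseudocount of 5 the calls of Hoxc10 (-0.77), Hoxc6 (-0.45) and Hoxc9 (-0.38) were lost. Thick limb marker sums were 109.5 to 188.1 TPM per mouse in CNT and 15.04 to 41.13 TPM in CCD. 1 of 2 thick limb genes and 1 of 4 thin limb genes were called lower in CCD. Endothelial sums were 283.8 to 312.4 TPM in CNT and 135.0 to 231.1 TPM in CCD, with no gene called. The part of these markers in the 7 calls was not tested.

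No Hoxb row was called there, with differences from -0.05 (Hoxb8) to 0.68 (Hoxb2 and Hoxb5). Hoxd8 differed by 0.01 (SE 0.18, adjusted p = 1) and Hoxd9 by -0.29 (SE 0.18, adjusted p = 1), which puts Hoxd10 apart from its neighbours in value, although the difference between genes was not tested. Hoxd3 differed by 0.89 (SE 0.21, adjusted p = 0.0118), under the size of 1. Because CNT was counted as nephron, the Hoxd10 call of the wide comparison depends on it: with CNT counted as collecting duct the Hoxd10 difference was -0.37 (adjusted p = 0.0221), Hoxb2, Hoxb5 and Hoxd1 also fell below the size of 1, and 16 rows were called, where 7.54% of all genes were.

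**Figure D4:**
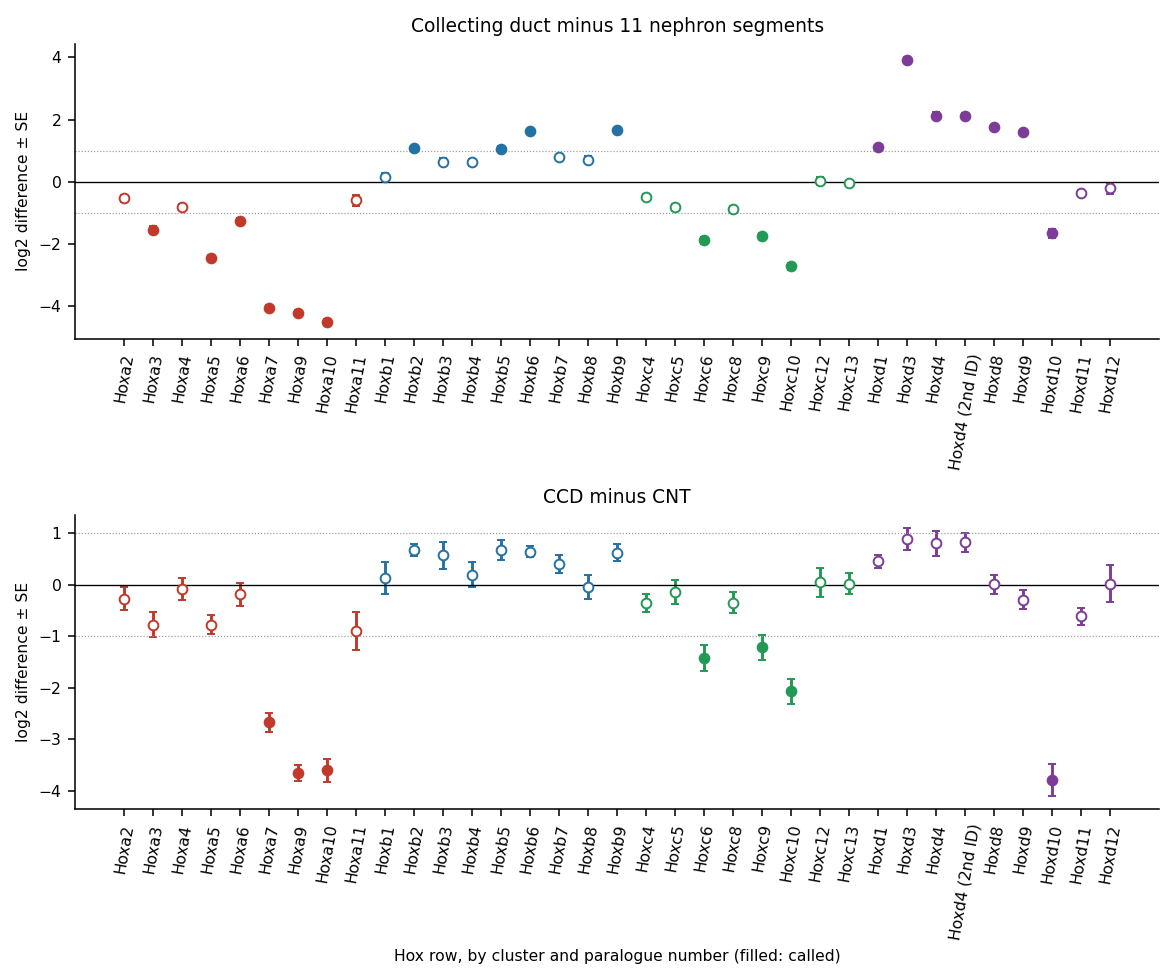
Log2 difference with its standard error (bars) for the Hox rows tested and reported by name, in order of cluster and number, for collecting duct minus nephron (top) and CCD minus CNT (bottom). Filled points passed both thresholds, dotted lines mark a difference of 1 in either direction, and 7 filled points, from -1.22 to -3.78, lie below 0 in the lower panel.

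A stricter description asks for no overlap of any mouse. Among the 33793 genes tested, 7 (0.0207%) had every one of the 12 collecting duct mice below all 38 nephron mice. 4 of the 7 were Hox genes: Hoxa7, Hoxa9, Hoxa10 and Hoxc9. The other three were Sall1, a zinc finger factor of the nephrogenic mesenchyme, Osbpl6, and Skap2, an adaptor protein gene that flanks the Hoxa cluster. In the opposite direction 39 genes (0.115%) lay above, among them 1 member, the Hoxd4 row ENSMUSG00000101174. Its lowest collecting duct mouse held 7.96 TPM (OMCD) and its highest nephron mouse 7.53 TPM (DTL1). The other Hoxd4 row overlapped, with 5.957 TPM in an IMCD mouse and 6.365 TPM in a CNT mouse.

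The segments were also matched by kidney zone, and DTL1 entered none of the zone comparisons. The Hoxb sum was 481 TPM in DTL1, and whether the zone calls would hold with it was not tested. In the cortex, CCD differed from PTS1, PTS2, CTAL, DCT and CNT in 18 rows, where 10.5% of all genes did. 10 were higher, where 7.9% of all genes were, and 8 lower, where 2.65% were. Hoxa9 differed by -3.66, Hoxa10 by -3.57 and Hoxa7 by -3.14 there, and Hoxd3 by 3.44, Hoxb9 by 2.72 and Hoxb6 by 2.10. In the outer medulla, OMCD differed from PTS3, DTL2 and MTAL in 18 rows, where 17.8% of all genes did. Again 10 were higher, against 15.1% of all genes, and 8 lower, against 2.76%, with Hoxd3 at 5.03, Hoxd8 at 3.32 and Hoxa10 at -4.51. Without OMCD mouse 4 Hoxa3 (-0.91), and without OMCD mouse 1 Hoxb8 (0.93), no longer reached the size of 1. After median ratio rescaling these splits were 7 higher and 10 lower in both zones, and after quantile normalization 7 and 10 in the cortex and 7 and 13 in the outer medulla.

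In the inner medulla, IMCD differed from DTL3 and ATL in 20 rows, where 22.6% of all genes did. 15 were lower, where 19.1% of all genes were, and 5 were higher (Hoxd3 4.27, Hoxd4 2.75 and 2.34, Hoxd9 1.74, Hoxd8 1.58), where 3.49% were. Hoxa7 reached -5.99 (SE 0.17) and Hoxa10 -5.57 (SE 0.21). No Hoxb row was called, and Hoxb7 was -0.77 (SE 0.16). Quantile normalization changed the split to 9 higher and 12 lower, and a pseudocount of 5 to 5 higher and 7 lower. Of the markers, 7 of 7 endothelial genes (median -2.34) and 4 of 6 leukocyte genes (median -1.34) were lower in IMCD. So were 3 of 7 stromal and muscle genes. 1 leukocyte gene and 4 of 5 principal cell genes were higher. The part of these markers in the Hox values was not tested. Leaving out ATL mice 4 and 6 left 19 rows, where 14% of all genes were called, with Hoxd12 lost (-0.45). Hoxd10 and Hoxd12 were at -1.07 and -1.06, and leaving out single mice ended these calls. For Hoxd10 these were DTL3 mouse 1 (-0.93) or IMCD mouse 3 (-0.999). For Hoxd12 they were DTL3 mouse 3, ATL mouse 4, ATL mouse 6 or IMCD mouse 3 (from -0.96 to -0.78). Both calls were also lost after median ratio rescaling (-0.84 and -0.91), after quantile normalization (-0.48 and -0.34) and with a pseudocount of 5 (-0.92 and -0.39). Hoxd10 lost its call with a pseudocount of 0.1 (-0.98) and with pieces averaged before the log (-0.96) as well.

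The effect of collecting duct against nephron itself differed between inner medulla and cortex in 15 rows, where 30.2% of all genes did. All 15 were more negative in the inner medulla, where 26.7% of all genes were and 3.57% were more positive, and the median over all genes was -0.60. Hoxb9 went from 2.72 in the cortex to -0.15 in the inner medulla (difference -2.87, SE 0.20, adjusted p = 7.53e-16) and Hoxb7 from 1.57 to -0.77 (difference -2.35, SE 0.20). Hoxa7 was lower in both zones, at -3.14 and -5.99. All 7 endothelial genes (median -2.25) and all 4 intercalated cell genes (median -5.81) were also more negative in the inner medulla, and their part in the Hox values was not tested. This direction depended on the scaling: 5 rows were more positive and 9 more negative after median ratio rescaling, and 8 and 7 after quantile normalization, with medians over all genes of -0.33 and -0.04. Hoxd12 lost its call without any of 9 single mice (of DTL3, ATL, CCD or IMCD), with adjusted p from 0.0527 to 0.108.

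From OMCD to IMCD, along the collecting duct, 8 of 36 rows differed, where 18.6% of all genes did. 3 were higher, where 3.4% of all genes were, and 5 lower, a share near the 15.2% of all genes that were. Hoxb3 (1.88, SE 0.28), Hoxb4 (1.31, SE 0.25) and Hoxb5 (1.17, SE 0.20) were higher in IMCD. Hoxd8 (-2.12, SE 0.19), Hoxd1 (-1.60, SE 0.13), Hoxd3 (-1.27, SE 0.22), Hoxc12 (-1.06) and Hoxc8 (-1.05) were lower. Hoxb3 shares 52.9% of its exon bases with Hoxb3os on the opposite strand, and their reads cannot be told apart there. Hoxb5 shares 3.59%, with Hoxb5os, and its mice measured 10.6 ± 1.56 TPM in OMCD (SD, n = 4) and 24.96 ± 1.59 TPM in IMCD (SD, n = 3). The split was 3 higher and 2 lower after median ratio rescaling and 5 and 1 after quantile normalization. Hoxc8, Hoxc12 and Hoxd3 lost their calls under both scalings (Hoxd3 at -0.99 and -0.96), and Hoxd1 after quantile normalization (-0.79). A pseudocount of 5 left Hoxb3, Hoxd8 and Hoxd3 called. Markers moved between these segments as well. 4 of 4 intercalated cell genes were lower in IMCD (median -8.76, with a median sum of 2891 TPM in OMCD and 0.637 TPM in IMCD). 6 of 7 endothelial genes (median -2.78) and 3 of 5 principal cell genes were lower too. So were 4 of 6 leukocyte genes (median -2.32, with 1 higher) and 2 of 7 stromal and muscle genes. Their part in the Hox differences was not tested. Hoxc8 lost its call without OMCD mouse 1 (-0.97) or IMCD mouse 3 (-0.96), and Hoxc12 without OMCD mouse 3 (-0.95).

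From CCD to OMCD, 5 rows were higher and none lower (Hoxb1, b8, c8, c12 and d1, from 1.08 to 1.25), where 12.1% of all genes were called, 10.4% higher and 1.73% lower. All 5 had group means under 4 TPM in both segments. Quantile normalization gave 0 higher and 2 lower (Hoxa10 and Hoxd10), and with a pseudocount of 5 none of the 5 calls was kept. Without OMCD mouse 1 Hoxb8 (0.97), and without OMCD mouse 3 Hoxc12 (0.98), fell below the size of 1. Receptor genes were also more often detected in OMCD than in CCD, with 69 to 239 against 1 per mouse. 5 of 7 endothelial genes were higher in OMCD (median 1.25), with sums of 399 to 532 TPM per mouse against 135 to 231 TPM in CCD. The part of both in these 5 calls was not tested.

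Within the nephron, the proximal tubule (PTS1 to PTS3) was compared with the distal nephron (MTAL, CTAL, DCT and CNT). 11 rows were higher distally and none was lower, where 17.4% of all genes differed, 12.7% higher and 4.72% lower. Hoxd10 rose by 5.62 (SE 0.18), Hoxd8 by 4.44 (SE 0.10), Hoxd9 by 3.15 (SE 0.10), Hoxd3 by 2.72 (SE 0.12), the Hoxd4 rows by 1.77 and 1.62, Hoxb6 by 2.30, Hoxb9 by 1.80, Hoxb7 by 1.51, Hoxc6 by 1.33 and Hoxb5 by 1.28. Hoxa rows were not called, with differences from -0.59 (Hoxa10) to 0.39 (Hoxa9). Under median ratio rescaling 8 rows were higher and 1 lower, and after quantile normalization 8 were higher. The calls of Hoxb7 (0.94 and 0.98), Hoxc6 (0.97 and 0.76) and Hoxb5 (0.95 and 0.80) were lost under both. With a pseudocount of 5 those of Hoxc6 (0.72), Hoxb5 (0.59) and the Hoxd4 rows (0.71 and 0.64) were lost. Of the markers, 6 of 7 endothelial genes (median 1.82) and 4 of 6 leukocyte genes (median 1.93) were also higher distally. So were 4 of 4 intercalated cell genes (median 4.04), 5 of 5 principal cell genes (median 4.51) and 2 of 7 stromal and muscle genes. All 5 proximal genes were lower (median -5.72), and the part of these markers in the Hox calls was not tested.

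Between the cortical and medullary parts of the thick ascending limb, a segment that dilutes the urine, 3 rows differed, where 3.15% of all genes did, 0.589% higher in MTAL and 2.57% lower. Hoxb9 was higher in MTAL (1.43, SE 0.17), with 34.5, 30.5 and 33.4 TPM against 10.9 to 12.2 TPM in the 5 CTAL mice, and the mice did not overlap. Hoxd8 (-1.19, SE 0.18) and Hoxc8 (-1.51, SE 0.20) were lower in MTAL, and Hoxc8 lost its call with a pseudocount of 5 (-0.70). Of the markers, 3 of 5 principal cell, 2 of 7 endothelial and 1 of 4 intercalated cell genes were also lower in MTAL. So were 2 of 5 proximal, 2 of 6 leukocyte and 1 of 4 podocyte genes. 1 of 7 stromal and muscle genes and 1 of 3 tested urothelial genes were lower as well. 1 principal cell gene was higher, and the part of these markers was not tested.

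In the glomerulus 5 of 8 tested Hoxc rows were higher than in the nephron, where 32.1% of all genes were. Hoxc8, which patterns the thoracic spine, measured 68.2, 70.2 and 67.6 TPM in the 3 glomerular mice, and no other mouse of the series was above 9.08 TPM (a DTL1 mouse). Its log2 difference from the 11 nephron segments was 4.62 (SE 0.17, adjusted p = 9.56e-27), and Hoxc6, at 35.4, 34.9 and 46.8 TPM, differed by 3.04 (SE 0.20). In all, 8 of 36 rows were higher in the glomerulus (Hoxa11, b1, c4, c5, c6, c8, c9 and d12), where 32.1% of all genes were. The median over all genes was 0.70. 3 rows were lower (Hoxb6 -2.07, Hoxb7 -1.55 and Hoxb9 -2.46), where 4.08% of all genes were. Either way, 30.6% of the Hox rows were called, below the 36.2% of all genes. The split was 6 higher and 5 lower after median ratio rescaling and 2 and 9 after quantile normalization. Under the latter Hoxc6 (2.39) and Hoxc8 (4.23) kept their calls, and Hoxc4 (0.14), Hoxc5 (0.89) and Hoxc9 (0.07) lost them. Hoxa11 (0.43), Hoxb1 (0.41) and Hoxd12 (0.15) lost theirs there too. After median ratio rescaling Hoxc9 (0.70) and Hoxd12 (0.88) were no longer called. With a pseudocount of 5, Hoxc4 (0.56), Hoxc5 (0.96), Hoxc9 (0.63), Hoxa11 (0.73), Hoxb1 (0.56) and Hoxd12 (0.34) lost theirs.

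Set only against DTL1, DTL2 and DTL3, which also held many receptor genes, 17 rows differed, where 13.5% of all genes did. 9 were higher, where 8.47% of all genes were, and 8 lower, where 5.03% were, and 7 of the 11 calls were kept. Hoxa11 (0.77), Hoxb1 (0.29), Hoxc9 (0.93) and Hoxd12 (0.12) were not, and Hoxd12 also fell to 0.94 without glomerular mouse 1. The stromal and muscle marker sum was 528 to 715 TPM per mouse in the glomerulus and at most 80.6 TPM in any tubule mouse, in CNT, the podocyte sum 7428 to 8575 TPM, and the endothelial sum 3380 to 3419 TPM, within the range of the DTL1 mice (2982 to 3986 TPM). The leukocyte sum was 428 to 536 TPM there and at most 164 TPM in any tubule mouse, in DTL1, and 5 of its 6 genes were called higher in the glomerulus. How much each cell type gave to the Hoxc level was not tested.

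Non-coding RNAs and flanking genes of the clusters showed both directions between collecting duct and nephron, with 3 of 18 tested genes higher (Haglr 2.07, Hoxb5os 1.25, Hoxd3os1 1.45), where 4.56% of all genes were, and 4 lower (Hotairm1 -2.88, Hoxa11os -1.02, Hoxaas3 -1.08, Skap2 -1.25), where 2.80% were, and a median of -0.10. Hotairm1, a non-coding RNA of the Hoxa cluster, was low in CNT already, at 3.02 TPM against 2.25 TPM in CCD, unlike Hoxa9. At the CNT to CCD border, 1 of the 18 was called, Hoxa11os (-1.44, SE 0.27), where 1.12% of all genes were.

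Of 9 genes for TALE homeodomain partners, the PBX, MEIS and PKNOX proteins that bind DNA with Hox proteins, 1 was higher in the collecting duct, where 4.56% of all genes were, Pbx3 (1.37, SE 0.10), and none lower, where 2.80% were, with a median of 0.24. Pbx3 was also the only one called at the border (1.19, SE 0.21), where 0.681% of all genes were higher and 0.438% lower. Among 15 tested genes listed as partners and regulators in kidney development, 7 were higher in the collecting duct and 1 was lower, against the same shares of all genes. The higher ones included Gata3 (5.51, SE 0.11) and Wnt9b (4.80, SE 0.12), both known from the ureteric bud. The lower one was Sall1 (-3.38, SE 0.10). At the border 2 of the 15 were higher, Gfra1 (2.33, SE 0.36) and Wnt9b (1.505, SE 0.27), and 1 was lower: Sall1 fell by 2.44 on the log2 scale (SE 0.21), from a mean of 5.78 TPM in CNT to 0.235 TPM in CCD. Of 22 tested genes for regulators of Hox clusters (retinoic acid receptors, Cdx, Polycomb and Trithorax proteins), 2 were higher in the collecting duct, Rarb (1.13) and Rarg (1.28), none was lower and none was called at the border.

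The genes most like the member with the highest mean level in each cluster were taken by Pearson r over the 15 group means. For Hoxa9 they were Skap2 (0.86), Gcnt2 (0.85) and Sall1 (0.85). Hoxb7 was most like Cgn (0.96), Rnf43 (0.96) and Sim1 (0.95). For Hoxc10 they were Nr2f2 (0.83), Arnt2 (0.80) and Reep3 (0.77), and for Hoxd8 Sgpp2 (0.95), Rsph1 (0.94) and Emc9 (0.94). These are likenesses over 15 points chosen out of 12055 genes. Hoxa9 and Hoxc10 did not hold the highest single group mean of their cluster. Those were of Hoxa7 (160.8 TPM in DTL3) and Hoxc8 (68.63 TPM in the glomerulus).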

How the data were processed

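Values were TPM, which scale reads by transcript length and library total, per gene and sample, deposited as tables by the authors. Reads of SMARTer V4 and Nextera XT libraries were processed with STAR 2.5.4a and RSEM 1.3.0, per the submitters' processing notes. The genome build and the use of strand are not given in the sources used here. Columns summed to 999998.6 to 1000190.3 TPM, so sequencing depth is unknown and no counting interval is given. Glomerular values carried 1 decimal and tubular values 2. 3 single-cell samples were not analysed here.

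Pieces of the same mouse number and segment were averaged as log2(TPM + 1). 1 PTS2 column matched no sample title and entered as a mouse without number. limma 3.58.1 in R 4.3.3 (trend on, not robust) was fitted to all 15 groups over 33793 genes with at least 1 TPM in 3 mice, p-values were adjusted by Benjamini-Hochberg, and a call needed an adjusted p under 0.05 and a log2 difference of at least 1. The steps were tested on simulated data. Members and gene lists were chosen with earlier results of these data known. The values of 1 member are not reported here, though counts and medians include it. Members at a group mean of 10 TPM were described by values of mice, by group means or by differences alone. For the member of highest mean level in each cluster, which need not hold the highest single group mean, the 3 genes of highest Pearson r were named. Mouse numbers were not stated to mark shared animals between segments, so p-values measure the spread between the samples as labelled. The alternatives were other pseudocounts, filters, scalings, averaging, mouse number as a block, other nephron definitions and leaving out each mouse; the set of DTL1 to DTL3 as reference for the glomerulus was chosen after seeing the data.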

Additional observations from a re-analysis of the deposited data

Results flagged for a closer look

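In 4 of 53 pairs of a member and a group with 4 or 5 mice, 1 mouse lay far from the others, where chance gives about 1 in 20. Hoxa7 measured 24.8 TPM in CTAL mouse 1 and 34.1 to 35.3 TPM in the other CTAL mice. Hoxb6 measured 94.0 TPM in OMCD mouse 2 and 112.9 to 115.6 TPM in the others. Hoxb7 measured 30.97 TPM in PTS2 mouse 1 and 19.8 to 22.5 TPM in the others. Hoxc10 measured 11.95 TPM in CTAL mouse 2 and 12.8 to 13.1 TPM in the others.

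The difference of collecting duct from nephron itself differed between inner medulla and cortex for 15 members (limma, inner medulla minus cortex), of which 14 are named here, where 30.2% of all genes differed and 26.7% were more negative in the inner medulla. In Hoxa the members were Hoxa3 (-2.15), Hoxa4 (-1.21), Hoxa5 (-2.09), Hoxa6 (-2.66), Hoxa7 (-2.85), Hoxa9 (-1.50) and Hoxa10 (-1.99). Their inner medullary effects ran from -1.74 for Hoxa4 to -5.99 for Hoxa7 and their cortical effects from -0.48 for Hoxa6 to -3.66 for Hoxa9, so all 7 were negative in both zones.

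In Hoxb they were Hoxb2 (-1.19), Hoxb6 (-1.46), Hoxb7 (-2.35) and Hoxb9 (-2.87). Their cortical effects were 1.41, 2.10, 1.57 and 2.72, and their inner medullary effects 0.22, 0.63, -0.77 and -0.15. Outside these clusters they were Hoxc5 (-1.28), Hoxc8 (-1.14) and Hoxd12 (-1.06). Adjusted p ranged from 7.53e-16 for Hoxb9 to 0.0394 for Hoxd12. 9 of the 15 calls were kept after median ratio rescaling and 7 after quantile normalization. Lost under both were Hoxa4 (-0.92 and -0.11), Hoxa9 (-0.73 and -0.94), Hoxb2 (-0.48 and -0.46), Hoxb6 (-0.77 and -0.94), Hoxc8 (-0.76 and -0.08) and Hoxd12 (-0.87 and -0.37). The inner medullary nephron groups hold DTL3 and ATL mice with 17 to 659 receptor genes at 1 TPM, against 3 to 22 in IMCD, and the part of that in these values was not tested.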

How the results depend on the processing

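Counts of Hox members called moved by more than 1.5 times under these settings. With a pseudocount of 5 they were 13 for collecting duct against nephron, 11 for the outer medulla, 12 for the inner medulla, 9 for inner medulla minus cortex, 4 for CNT against CCD, 0 for CCD against OMCD (limma, where the count was 5 with a pseudocount of 1), 3 for OMCD against IMCD, 7 for proximal against distal and 5 for the glomerulus. With a pseudocount of 0.1 they were 29 for the cortex, 13 for CCD against OMCD, 14 for OMCD against IMCD and 25 for the glomerulus. CCD against OMCD gave 2 with a filter at 5 TPM, 3 after median ratio rescaling and 2 after quantile normalization, and OMCD against IMCD gave 5 after median ratio rescaling. Against DTL1 to DTL3 alone the glomerulus gave 17, and Hoxd9 turned to 1.14 from -0.10.

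In 53 fits 1 mouse each was left out, and each comparison was read over the fits that left out a mouse of its own groups. The counts were 20 for collecting duct against nephron, 18 for the cortex, 17 to 19 for the outer medulla, 18 to 21 for the inner medulla, 14 to 16 for inner medulla minus cortex, 7 to 8 for CNT against CCD, 4 to 6 for CCD against OMCD, 7 to 10 for OMCD against IMCD, 3 for CTAL against MTAL, 11 for proximal against distal, 11 to 14 for the glomerulus and 36 for any difference among groups.

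Mouse numbers did not pair the samples: deviations from group means had a median r of 0.0002 over 290 pairs with the same number and 0.0004 over 968 others. With the number as a replicate block the counts were 20, 18, 18, 19, 14, 7, 5, 8, 3, 11, 11 and 36 in the same order, and Hoxd12 (inner medulla, -0.84, and inner medulla minus cortex, -0.74) and Hoxc12 (OMCD against IMCD, -0.98) lost their calls. Of 136 calls, 110 were kept after median ratio rescaling, 98 after quantile normalization and 78 with a pseudocount of 5, and the cause was not tested. The pseudocount acts most on members at a few TPM.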
